A study of Mus musculus with 4 samples.

Results

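A set of 9 genes that striatal projection neurons use in dopamine and adenosine signalling, or as transcription factors of that lineage, was examined for H3K4me3 in left cerebral cortex. They were chosen by name, as a check for striatal tissue, with earlier results of these data known. They make 9 of 21938 protein-coding genes of the annotation: Adora2a, Gng7, Rgs9, Adcy5, Pde10a, Ppp1r1b, Rasd2, Isl1 and Ebf1. H3K4me3, histone H3 trimethylated on lysine 4, was mapped by chromatin immunoprecipitation and sequencing in female B6CASTF1/J mice aged 2 months, a first-generation hybrid of C57BL/6J and CAST/EiJ, with no treatment or engineered allele named. Tissue came as pool J, numbered biological replicate 1, and as pool I, numbered 2. Each combined 4 biosamples and gave 2 libraries termed technical replicates, 4 libraries in all. They share 1 donor record, with no statement that the biosamples came from separate animals, so differences between the pools may be technical. There were 4 peak lists. The pool J list held 21573 peaks and that of pool I 24508. A list of the pooled reads held 26286, and a list termed replicated 25446, of which 24595 were identical to peaks of the pooled reads.

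H3K4me3 is deposited around the starts of active genes and of some poised ones, mostly at CpG-rich promoters, and long domains of the mark are known to occur at genes tied to the identity of a cell. In projection neurons of the striatum, dopamine and adenosine receptors act through an olfactory-type G protein on adenylyl cyclase, cyclic AMP drives protein kinase A, and phosphodiesterases and a phosphatase inhibitor shape the outcome. The cortex lies next to the striatum, and several of these genes are also expressed at lower levels by cortical neurons.

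All 9 genes carried a promoter peak in the replicated list, in the list of the pooled reads and in the pool J list, and 8 of 9, all but Isl1, in the pool I list and in both pools. A gene was called marked when a peak met, by at least 1 base, the 1000 bases either side of any of its annotated starts. By that rule 65.2% of all protein-coding genes were marked in the replicated list, 65.4% in the pooled reads, 63.9% in pool J, 64.8% in pool I and 63.6% in both pools. Isl1 was the 1 gene of the 9 found in 1 pool alone, a class that held 1.49% of all genes. With peaks limited to a −log10 q of at least 10, 8 of the 9 genes were marked, against 62.3% of all genes, and Isl1 was again the one missing. Because the tissue was assayed in bulk, fewer cells carrying the mark and less of the mark per cell cannot be told apart.

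The domains differed widely in size. A domain joins peaks up to 1000 bases apart, and a gene takes its widest one. Widths in the replicated list ran from 279 bases at Isl1 to 7240 bases at Adcy5, with a median of 2235 bases, beside a median of 2124 bases over all marked genes (quartiles 1537 and 2966), and 5 of the 9 lay above that median. Enrichment, the authors' own value for a peak, taken as the fold over a control and read from the highest promoter peak, had a median of 18.1 in the 9 genes and 20.8 in all marked genes. Only Ppp1r1b and Rasd2, 2 of the 9, lay above the median enrichment of the replicated list.

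**Figure D1:**
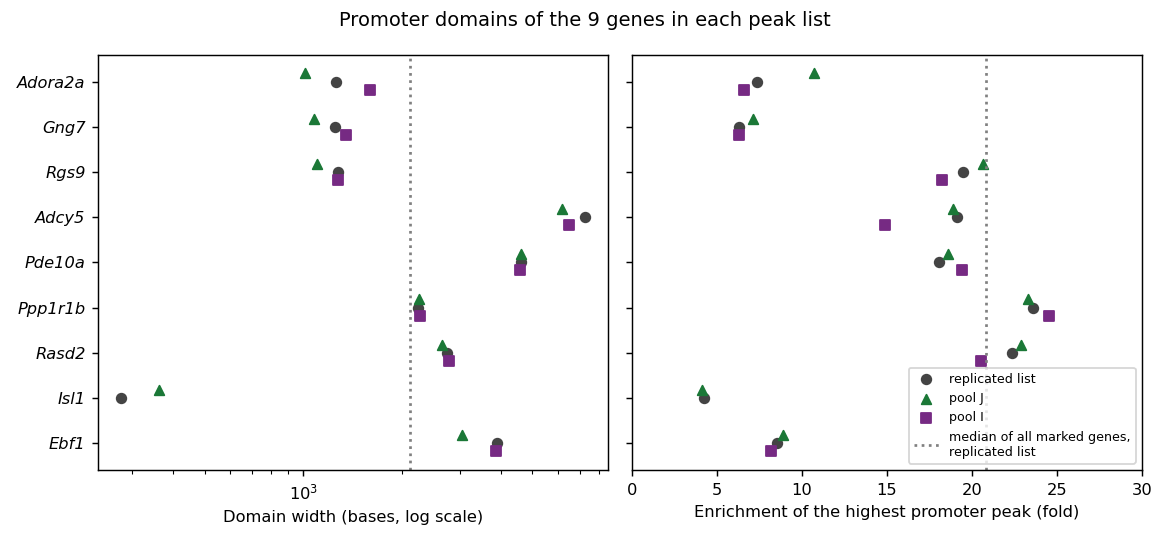
Domain width in bases on a log scale (left) and enrichment as the fold of the highest promoter peak (right) of each gene, with 1 point for each of the replicated, pool J and pool I lists and a dotted line at the median of all marked genes in the replicated list. Adcy5 lies farthest right in width at 7240 bases, Isl1 farthest left at 279 bases with no pool I point, and Adora2a, Gng7, Isl1 and Ebf1 have enrichments below 11.

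The promoter sequences of 4 genes are given to show how their base composition differs. Each run below lies upstream of the first exon, is read 5′ to 3′ on the gene's strand, is taken from RefSeq on GRCm38.p6 (mm10), and has every CG dinucleotide in capitals. Isl1 is shown for its narrow domain, Gng7 for its low enrichment, Rgs9 as narrow with higher enrichment, and Adcy5 for its wide domain. The Isl1 run is chr13:116309690-116309938 on the minus strand, Gng7 chr10:81014946-81015175 on the minus strand, Rgs9 chr11:109298182-109298431 on the minus strand, and Adcy5 chr16:35154614-35154863 on the plus strand.
Isl1: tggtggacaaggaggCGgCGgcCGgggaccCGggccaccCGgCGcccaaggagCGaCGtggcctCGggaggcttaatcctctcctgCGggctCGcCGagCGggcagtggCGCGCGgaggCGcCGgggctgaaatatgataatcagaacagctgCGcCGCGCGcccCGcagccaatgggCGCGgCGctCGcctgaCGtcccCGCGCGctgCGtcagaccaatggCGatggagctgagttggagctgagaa
Gng7: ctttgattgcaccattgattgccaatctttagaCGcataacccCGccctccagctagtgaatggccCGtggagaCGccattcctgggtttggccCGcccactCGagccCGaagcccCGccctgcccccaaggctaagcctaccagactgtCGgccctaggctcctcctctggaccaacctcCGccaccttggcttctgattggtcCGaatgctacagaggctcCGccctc
Rgs9: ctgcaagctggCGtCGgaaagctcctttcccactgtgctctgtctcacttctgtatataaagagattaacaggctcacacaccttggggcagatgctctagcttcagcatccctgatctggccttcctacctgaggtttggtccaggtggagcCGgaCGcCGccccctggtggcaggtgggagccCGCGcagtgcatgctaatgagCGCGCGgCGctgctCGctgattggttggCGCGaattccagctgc
Adcy5: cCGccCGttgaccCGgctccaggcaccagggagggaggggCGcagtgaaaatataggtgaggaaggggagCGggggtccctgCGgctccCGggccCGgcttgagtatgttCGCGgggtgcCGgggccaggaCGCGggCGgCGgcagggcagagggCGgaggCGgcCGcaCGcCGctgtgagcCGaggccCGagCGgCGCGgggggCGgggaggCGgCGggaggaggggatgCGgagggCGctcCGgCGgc

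In the 250 bases before the RefSeq start, Isl1 held 33 CG dinucleotides and Adcy5 held 32, where the median of 16522 promoters in the same table was 10. Rgs9 held 14 and Gng7 held 15, of which 12 lie in the 230 bases printed. So in these 250 bases the promoters of the narrowest and the widest domain among the 9 were nearly equal in CG number. They were not equal in the wider window used below for CpG content, where Isl1 held 116 and Adcy5 held 185. The ratio of observed to expected CpG in that wider window was close, at 0.779 for Isl1 and 0.799 for Adcy5. The replicated Isl1 peak covered 170 of the 249 printed bases, and the pool J peak covered all 249. The Rgs9 and Adcy5 runs, 250 bases each, lay wholly inside a peak. Of the 230 printed Gng7 bases, 100 lay inside a replicated peak and 93 inside a pool J peak.

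Short motifs were searched on both strands of these 250-base windows. The cyclic AMP response element TGACGTCA, present in 2.05% of all promoters, was in none of the 4. Its shorter form TGACG, which also lies within the full element, occurred 2 times in the Isl1 window and in none of the other three, and was present in 20.7% of all promoters. The GC box GGGCGG occurred 5 times at Gng7, 4 of them in the bases printed, 4 times at Adcy5 and 1 time at Rgs9. It was present in 44.3% of promoters. TATAAA occurred 1 time at Rgs9 only among the 4, with 11.9% of promoters holding it, and CCAAT 2 times at Isl1, 2 times at Gng7 and 1 time at Rgs9, with 36.1% holding it. These are matches of letters only.

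**Figure D2:**
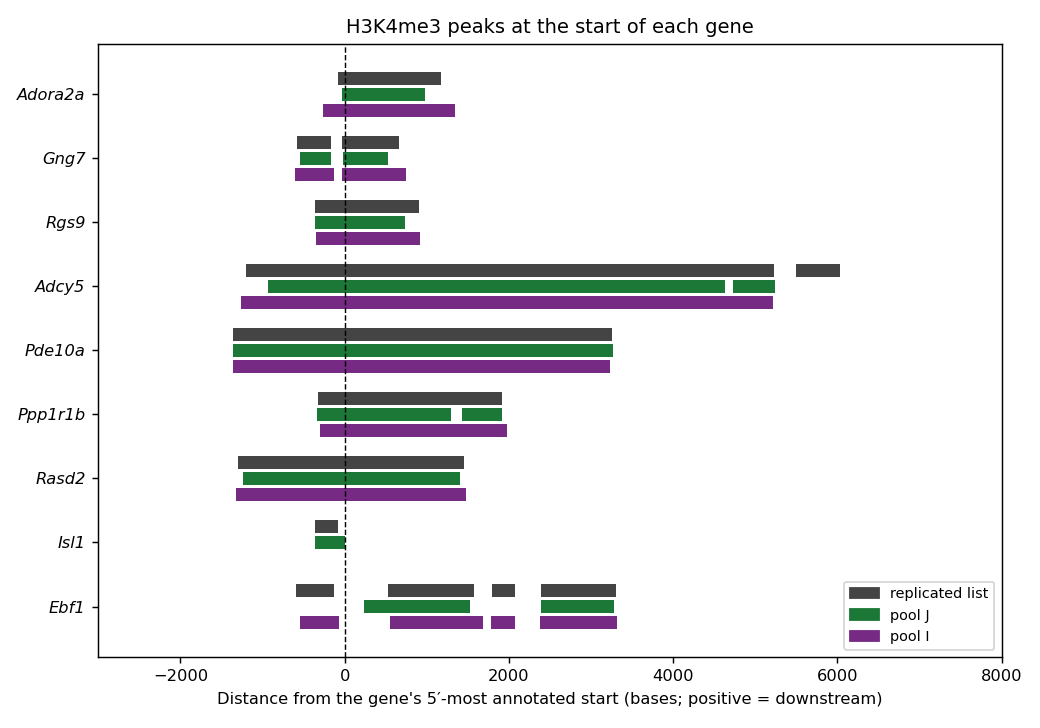
H3K4me3 peaks around each gene's 5′-most annotated start (dashed line at 0, in bases, downstream to the right) in the replicated, pool J and pool I lists. The bars span the start at 7 of the genes in the replicated list, extend 6033 bases downstream at Adcy5, form 2 peaks at Gng7 and 4 at Ebf1, and at Isl1 lie wholly upstream in the replicated list, reach the start in pool J and are missing from pool I.

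Adora2a encodes the adenosine receptor of the 2A type, which couples to the stimulatory G protein in projection neurons of the indirect pathway. The gene lies at chr10:75316877-75334784 on the plus strand (mm10), and its domain, chr10:75316790-75318050, reached from 87 bases upstream of the first start to 1173 bases downstream. Its width was 1261 bases in the replicated list, 1011 for pool J and 1599 for pool I, or 1305 ± 416 bases (SD, n = 2 pools). The pools differed 1.58-fold, and Adora2a was the 1 gene of 8 marked in both pools to pass 1.5-fold, a difference shown by 4.79% of the 13961 protein-coding genes marked in both pools. Enrichment was 7.35 in the replicated list, 10.7 for pool J and 6.60 for pool I, so the narrower domain came with the higher value. In the replicated list Adora2a stood at percentile 15.4 of all marked genes for width and 9.20 for enrichment. The first 2 of its 4 annotated starts had a peak, and those 6243 and 7981 bases downstream had none in any list.

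Here and for the families below, counts are from the replicated list, in which 65.2% of all protein-coding genes were marked. Among the adenosine receptors, 3 of 4 were marked, and Adora3 was not. Adora1, the inhibitory A1 receptor found throughout the cortex, had a domain of 6326 bases in the replicated list, 4876 for pool J and 5751 for pool I. Adora2b had one of 2747 bases. Adora2a was thus the narrowest and, at 7.35 beside 20.5 for Adora1 and 11.0 for Adora2b, the least enriched of the 3 marked receptors.

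Gng7 encodes the G protein gamma subunit that joins the olfactory-type alpha subunit in the striatum. At chr10:80948624-81014945 on the minus strand, it had a promoter domain at chr10:81014279-81015524, made of a peak of 697 bases over the start and another of 419 bases upstream. The domain spanned 1246 bases in the replicated list, 1076 for pool J and 1354 for pool I, or 1215 ± 197 bases (SD, n = 2). Its enrichment of 6.28 in the replicated list, 7.12 for pool J and 6.32 for pool I put it at percentile 7.63 in the replicated list. Its promoter also had the lowest CpG ratio of the 9, at 0.284. The starts 13580 and 16755 bases inside the gene had no peak in any list.

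A peak inside Gng7 stood higher than the promoter. It lay at chr10:80985282-80986232 in an intron, 951 bases wide and 11958 bases from the nearest annotated start of any gene. Its enrichment was 10.2 in the replicated list, 9.24 for pool J and 10.9 for pool I, above that of the promoter in each list. Among the 7982 replicated peaks more than 1000 bases from every annotated start, whose median enrichment was 3.87, it stood at percentile 91.4.

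In the gamma subunit family, 11 of 12 genes were marked and Gngt1, of the rod photoreceptor, was not. Gngt2, counted among the 11, had 340 bases in the replicated list and no peak in either pool list, so that 10 were marked in both pools. Gng3, a neuronal gamma subunit, had the widest domain at 4490 bases with an enrichment of 23.3. Gng7 ranked 9 of 11 in width.

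Rgs9 encodes a regulator of G protein signalling that speeds the shut-off of G protein alpha subunits downstream of dopamine and opioid receptors. At chr11:109225355-109298129 on the minus strand, it had a single-peak domain at chr11:109297221-109298495. The domain spanned 1275 bases in the replicated list, 1098 for pool J and 1277 for pool I, or 1188 ± 127 bases (SD, n = 2). Enrichment was 19.5, 20.6 and 18.2 in the same order. Rgs9 was nearly as narrow as Adora2a and Gng7, at percentile 15.8, while its enrichment stood at percentile 43.4. Starts 47978 and 51164 bases inside the gene had no peak.

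Of 21 RGS genes, 17 were marked, and Rgs5, Rgs13, Rgs18 and Rgs21 were not, though Rgs5 had a domain of 573 bases in pool I. Rgs1, counted as marked, had 198 bases in the replicated list and no peak in the other lists. The widest was Rgs7, of the same subfamily as Rgs9, with 4337 bases and an enrichment of 27.5. Rgs9 ranked 14 of 17 in width and 6 in enrichment.

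Adcy5 encodes the main adenylyl cyclase of the striatum, which makes cyclic AMP. At chr16:35154877-35305738 on the plus strand, its domain at chr16:35153671-35160910 reached 1206 bases upstream and 6033 bases downstream of the start. It spanned 7240 bases in the replicated list, 6175 for pool J and 6479 for pool I, or 6327 ± 215 bases (SD, n = 2). Among all marked genes this width stood at percentile 98.6 in the replicated list, 98.2 for pool J and 97.9 for pool I. Its enrichment ranked lower, at 19.1, 18.9 and 14.9, and stood at percentile 41.4 in the replicated list. A second peak of 539 bases with an enrichment of 1.80 made up the far end of the domain, and the main peak alone measured 6438 bases. The start 115785 bases inside the gene had no peak.

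Of the 10 adenylyl cyclases, 9 were marked, and Adcy10, the soluble cyclase, was not. Adcy9 was wider than Adcy5, at 7963 bases with an enrichment of 28.1, and Adcy5 ranked 2 of 9. The median width of the marked cyclases was 3730 bases.

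Pde10a encodes a phosphodiesterase that degrades cyclic AMP and cyclic GMP and is abundant in projection neurons. At chr17:8525372-8986648 on the plus strand, it had 13 annotated starts, of which 7 had a peak. These fell into 2 separate domains. Having 2 or more was a trait of 9.45% of marked genes and of Pde10a alone among the 9. That share was not matched for the number of annotated starts. The upstream domain, chr17:8524013-8528627, spanned 4615 bases in the replicated list, 4630 for pool J and 4590 for pool I, or 4610 ± 28.3 bases (SD, n = 2). The downstream domain, chr17:8800486-8803728, lay over starts that begin 276321 bases into the gene, and spanned 3243 bases in the replicated list, 3142 for pool J and 3376 for pool I. Both were present in both pools and changed little in width between them.

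The Pde10a domains were also close in enrichment. The upstream peak had 18.1 in the replicated list, 17.5 for pool J and 19.0 for pool I. The downstream peak had 17.6, 18.6 and 19.4. The gene stood at percentile 92.7 for width and 36.7 for enrichment. The 5 starts from 324613 to 420197 bases into the gene, and 1 at 231646 bases, had no peak in any list. Among 24 phosphodiesterases 19 were marked, and Pde6a, Pde6b, Pde6c, Pde6g and Pde6h, subunits of the photoreceptor enzyme, were not. Pde6d was marked, with 2335 bases and an enrichment of 23.3 in the replicated list. Pde2a had the widest domain with 8042 bases, and Pde10a ranked 5 in width and 11 in enrichment of the 19.

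Ppp1r1b encodes DARPP-32, which inhibits protein phosphatase 1 once protein kinase A has phosphorylated it. At chr11:98348404-98357796 on the plus strand, its domain at chr11:98348084-98350318 spanned 2235 bases in the replicated list, 2253 for pool J and 2275 for pool I, or 2264 ± 15.6 bases (SD, n = 2). Enrichment was 23.6, 23.3 and 24.5, the highest of the 9 in each list. Even so the gene stood at percentile 54.1 of marked genes for width and 64.4 for enrichment, near the middle of all marked promoters.

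Ppp1r1b also had peaks upstream, away from any annotated start. One of 984 bases lay 5280 bases from its start, at chr11:98342141-98343124, with an enrichment of 16.9 in the replicated list, 16.1 for pool J and 16.7 for pool I. Another of 1357 bases lay 8779 bases away, at chr11:98338269-98339625, with 15.0, 15.7 and 13.5. They stood at percentiles 97.9 and 96.7 of the 7982 replicated peaks far from starts. The next gene upstream is Neurod2, a transcription factor of cortical excitatory neurons, whose start lay 8621 bases from the farther peak. Which gene these peaks serve was not tested. In its own group of inhibitors 2 of 3 were marked. Ppp1r1a had 2014 bases and 22.8, and Ppp1r1c had no peak.

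Rasd2 encodes Rhes, a small GTPase enriched in the striatum. At chr8:75213944-75224113 on the plus strand, its domain at chr8:75212651-75215400 spanned 2750 bases in the replicated list, 2652 for pool J and 2793 for pool I, or 2722.5 ± 99.7 bases (SD, n = 2). Enrichment was 22.3, 22.9 and 20.5. Both annotated starts lay inside the peak, and the gene stood at percentile 70.5 for width and 58.1 for enrichment. Its paralogue Rasd1 was marked as well, with 2098 bases and an enrichment of 10.8.

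Isl1 encodes a LIM homeodomain factor that specifies projection neurons of the direct pathway and several other neuron types outside the cortex. At chr13:116298281-116309689 on the minus strand, it had 1 peak, chr13:116309769-116310047, of 279 bases with an enrichment of 4.26, lying upstream of the start by 80 bases. The pool J peak had 362 bases and an enrichment of 4.12, and pool I had no peak within 10000 bases of the gene. Of the 14293 marked genes in the replicated list, 99 had a narrower domain, as had 87 of 14027 in pool J. Isl1 was at percentile 0.696 for width and 3.61 for enrichment, and its −log10 q was 7.83 in the replicated list and 6.18 in pool J.

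In the LIM homeobox family 7 of 12 genes were marked in the replicated list, a share near the 65.2% of all protein-coding genes. Lhx1, Lhx5, Lhx8, Lhx9 and Lmx1b were not, though Lhx5 had a peak in the pooled reads and in pool I. Lhx2, which acts in cortical progenitors and neurons, had the widest domain of the family with 7847 bases and an enrichment of 18.3. Lhx6, a factor of cortical inhibitory neurons, had 2358 bases in the replicated list, 3271 for pool J and 2240 for pool I, with an enrichment of 5.07 in the replicated list. Isl1 was the narrowest of the 7 and ranked 3 in enrichment. Its closest paralogue, Isl2, had 398 bases in the replicated list and 418 in pool J, and like Isl1 no peak in pool I.

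Ebf1 encodes a zinc finger factor of the direct pathway lineage that also acts in B cells and in mural cells. At chr11:44617317-45008091 on the plus strand, its domain at chr11:44616722-44620625 joined 4 peaks that covered 2723 of its 3904 bases. Pool J gave a width of 3041 bases, pool I one of 3864, or 3452.5 ± 582 bases (SD, n = 2). Enrichment was 8.55 in the replicated list, 8.87 for pool J and 8.17 for pool I, which put Ebf1 at percentile 87.5 for width but 11.0 for enrichment. The domain also held the start of Gm37695, an unclassified transcript.

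The width of Ebf1 came from the merging of low peaks. Its highest peak had 1055 bases, and its summit lay 1071 bases downstream of the first start. Another peak of 678 bases lay 5579 bases upstream, with an enrichment of 7.53 in the replicated list, 5.52 for pool J and 7.98 for pool I. Of the 4 Ebf genes 3 were marked, all but Ebf2. Ebf1 was the widest of them, Ebf4 had 1847 bases and an enrichment of 15.5, and Ebf3 had 1343 bases and 5.18.

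**Figure D3:**
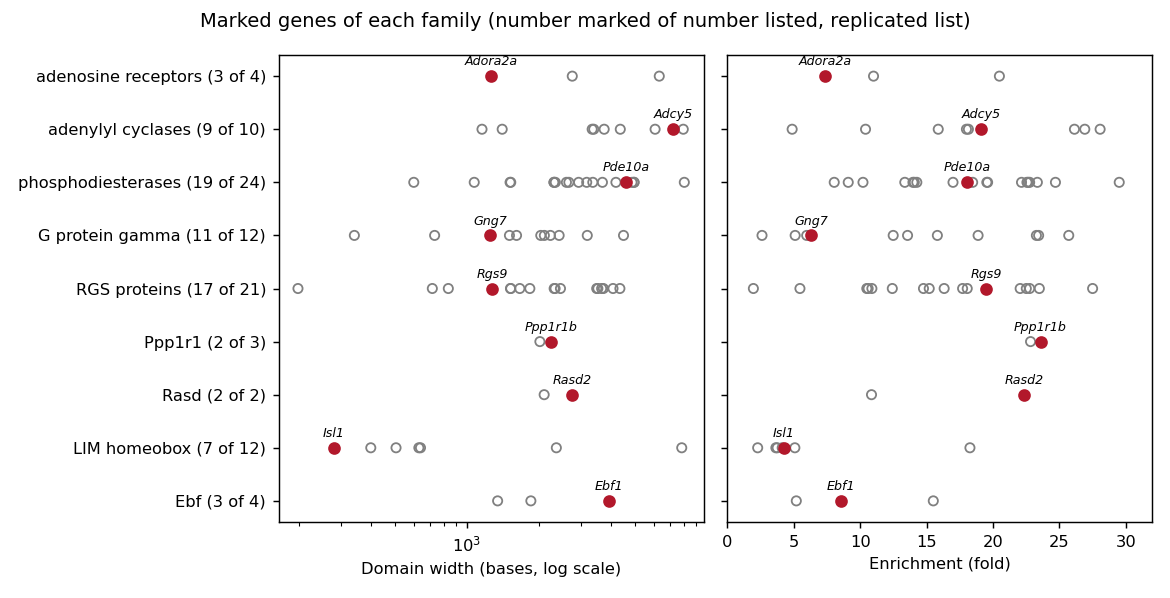
Domain width in bases on a log scale (left) and enrichment in fold (right) of the marked genes of each family in the replicated list, with the 9 genes filled and named and their paralogues as open circles. Adcy5, Pde10a and Ebf1 lie towards the wide end of their families, and Adora2a, Gng7, Rgs9 and Isl1 towards the narrow end.

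Across the 9 genes, 28 of 48 annotated starts had a peak within 1000 bases. The unmarked starts belonged to internal or downstream transcripts, and in every gene the 5′-most start was one of those with a peak. For 7 genes the summit of the highest peak lay downstream of that start, from 115 bases at Gng7 to 1116 at Pde10a, and at Rasd2 and Isl1 it lay at positions -607 and -231. Between pools, 7 of the 8 genes marked in both were wider in pool I, as were 76.6% of the 13961 genes marked in both pools. The median width ratio, pool I over pool J, was 1.11 in the 8 and 1.07 in the 13961, so the shift in the 8 was close to that of the lists as a whole.

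The values were also set beside the CpG content of the promoters. Genes were ranked by the ratio of observed to expected CpG in the 2000 bases around the 5′-most start and divided into 10 equal groups. Of all genes 3.83% were marked in the lowest group, 47.2% in the fourth and 98.7% in the highest. The ratio had a median of 0.573 in the 9 genes, with a range of 0.284 to 0.799, beside 0.605 in all marked genes and 0.474 in all protein-coding genes. Of the 9 genes, 8 lay in groups in which over 92% of genes were marked, so that a peak at those promoters was the usual state.

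Within their CpG groups, the genes parted to both sides. Isl1, with a ratio of 0.779, lay at the lower edge of the highest group. The median domain was 2830 bases there and 2429.5 bases in the ninth group. Only 2 of the 2164 marked genes of the highest group were narrower than Isl1, and 13 had a lower enrichment. Adcy5, in the same group, stood at percentile 97.5 for width but 20.1 for enrichment. Pde10a and Ebf1, both in the seventh group, stood at percentiles 94.2 and 90.2 for width. Adora2a, of that same group, stood at 10.1 for width and 4.59 for enrichment.

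Gng7 was the 1 gene of the 9 from a CpG-poor group, the fourth, whose marked genes had a median of 1479 bases and an enrichment of 12.8. There it stood at percentile 41.6 for width and 25.9 for enrichment, higher than its 14.9 and 7.63 among all marked genes. Rgs9, in the sixth group, stood at percentile 21.2 for width and 50.5 for enrichment. Ppp1r1b, also in the sixth, stood at 69.6 and 70.9, and Rasd2, in the ninth, at 63.2 and 46.4.

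**Figure D4:**
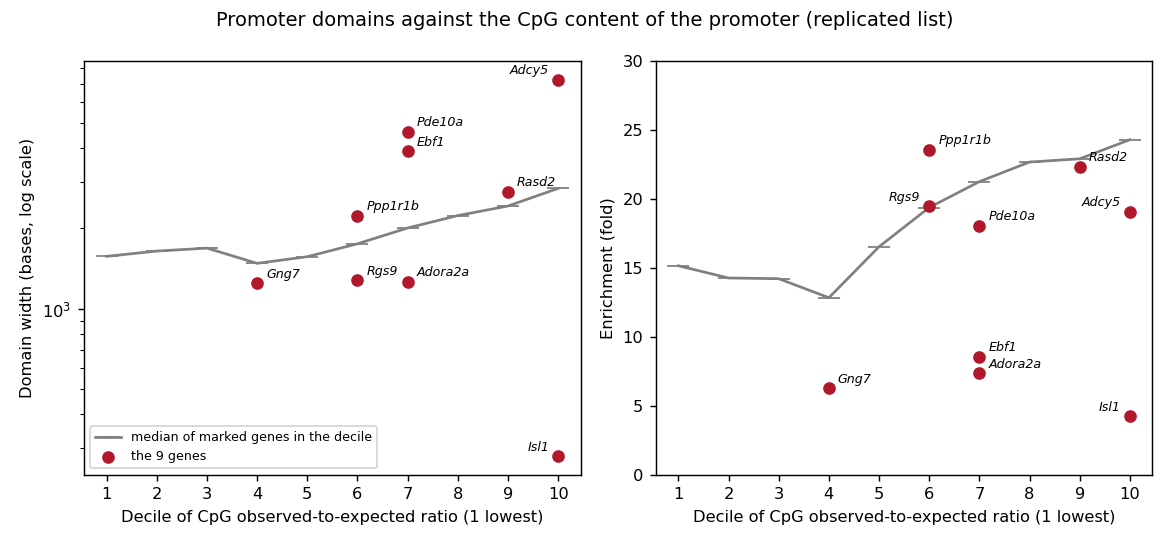
Domain width in bases on a log scale (left) and enrichment in fold (right) of the 9 genes in the replicated list against the decile of the observed-to-expected CpG ratio, with the grey line at the median of all marked genes in each decile. Isl1 and Adcy5 share the highest decile and lie on opposite sides of its median width of 2830 bases, and Gng7 lies near the line only for width.

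The 24 genes of the same signalling route, the receptors, G protein subunits, kinase and phosphatase subunits and anchors, were all marked in the replicated list, and 23 in both pools. Of all protein-coding genes, 65.2% were marked in the replicated list and 63.6% in both pools. The median width of the 24 was 3132 bases, beside 2235 in the 9 genes and 2124 in all marked genes. Their median enrichment was 23.3, beside 18.1 in the 9 genes and 20.8 in all marked genes. Most of the 24 act in neurons of every region. Gnal, the olfactory-type alpha subunit, had 2533 bases and Rgs7bp, the membrane anchor of Rgs9, had the widest domain with 6937. The dopamine receptors differed. Drd1 had 5603 bases in the replicated list, 1350 for pool J and 6862 for pool I, whereas Drd2 had 210 bases in the replicated list and no peak in either pool list.

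Other markers of striatal projection neurons gave a similar mixture. The lists overlap, as Drd1, Drd2, Gnal and Ptpn5 were also among the signalling genes above. Of 25 striatal markers found in the annotation, 24 were marked in the replicated list, beside 65.2% of all protein-coding genes, and Six3 was not. In pool J 21 were marked, in pool I 22, and in both pools 21. Drd2 and Tac1, with 210 and 239 bases in the replicated list, had a peak in neither pool list, and Sp9 had one in pool I only. The median width was 2273.5 bases and the median enrichment 13.3. The list holds genes that cortical neurons also use, among them Meis2, Foxp1 and Bcl11b.

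Markers of cortical excitatory neurons were marked in 14 of 14 cases in the replicated list and in both pools. Their median width was 6892 bases and their median enrichment 18.6 in the replicated list. Such counts do not test the tissue label, since 24 of 25 striatal markers were marked in the same list and no other tissue was compared. Of 12 inhibitory neuron markers 11 were marked in the replicated list, with a median of 2358 bases, and 10 in both pools. Astrocyte markers were marked in 7 of 8 cases by either count, and endothelial markers in 8 of 8 in the replicated list and 7 in both pools. Oligodendrocyte markers gave 6 of 8 by either count, mural markers 6 of 8 in the replicated list and 5 in both pools, and fibroblast markers 3 of 6 by either count. For microglia 5 of 8 were marked in the replicated list, with a median of 212 bases, and 0 in both pools. Beside these stand 65.2% of all protein-coding genes marked in the replicated list and 63.6% in both pools. Of 5 B cell markers, named because Ebf1 acts in those cells, Pax5 alone had a peak in the replicated list, of 413 bases. Which cells carried the mark at each of the 9 genes was not tested.

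**Figure D5:**
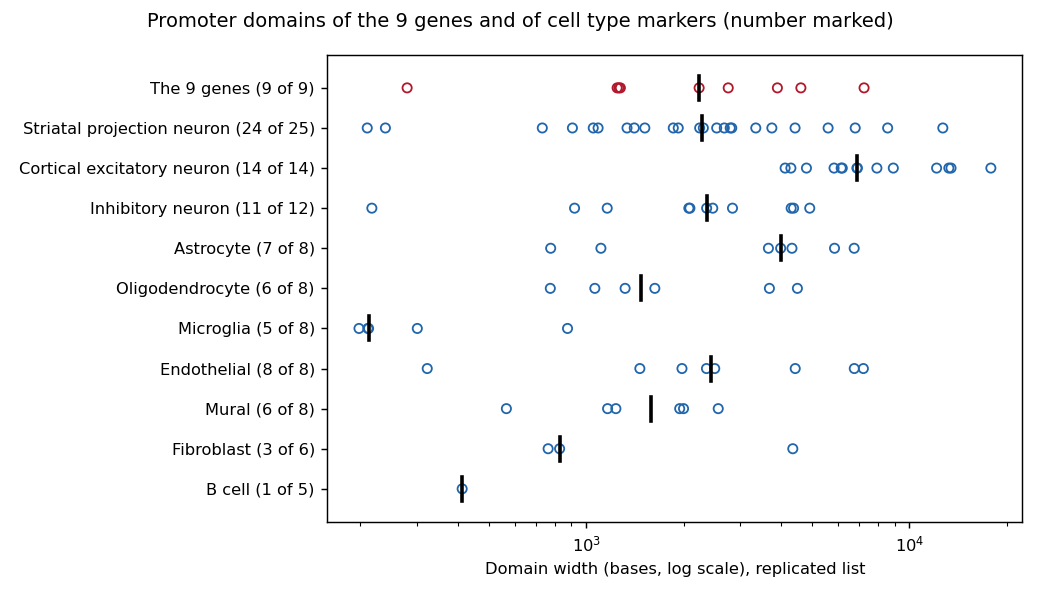
Domain width in bases on a log scale in the replicated list for the 9 genes (top row) and for markers of each cell type, with 1 circle for each marked gene, a black bar at the median and the number marked in parentheses. The 9 genes lie within the range of the other striatal markers, with medians of 2235 and 2273.5 bases, and the cortical excitatory markers lie further right with a median of 6892 bases.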

How the data were processed

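H3K4me3 ChIP-seq libraries, 4 in number, were assigned to pool J or pool I by their labels, and the 4 deposited peak lists were assigned to pools from the text files deposited with the libraries. The aligner, the caller with its settings, and the read numbers were not given in the sources used. The depth of each list is therefore unknown. Of the authors' values, the enrichment ratio of each peak was used to describe and rank peaks within a list, the deposited −log10 q as a filter, and the deposited summit offset (not a score) for position.

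Starts came from GENCODE release M21 on mm10, without 13 mitochondrial genes. Windows of 1000 bases either side of a start, merging up to 1000 bases and CpG ratios were computed with Python 3.11.15, numpy 2.4.6, pandas 2.3.3 and pysam 0.24.0. Plots were drawn with matplotlib 3.10.9. Percentiles are among marked genes of the same list. The procedure was tested on simulated data. With 1 list a pool, no test was made.

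Members and lists were chosen with earlier results of these data known. Named are all 9 genes, and of the related genes those counted in groups of 5 or fewer, the widest paralogue and the unmarked ones where 5 or fewer; paralogues, partners and neighbouring genes beyond these were chosen after their values were seen. The gene symbol Gpr52 was not matched in the annotation. RefSeq promoter sequences matched 7 of the 9 genes. Alternatives changed the window (500 or 2500 bases), the starts, the q limit (5 or 10), summit in place of overlap, merging and the list.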

Additional observations from a re-analysis of the deposited data

How the results depend on the processing

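All 9 genes remained marked with windows of 500 or 2500 bases, the 5′-most start alone, a −log10 q of at least 5, summits inside the window, and in the lists of the pooled reads and of pool J. With a −log10 q of at least 10 and in the pool I list 8 were marked, Isl1 missing. The number marked in both pools was 8 under each alternative run. The median width fell to 1275 bases without merging beyond overlap, where the median of all marked genes was 1977, so that 4 of the 9 lay above it. In the pool I list alone, without Isl1, the median width was 2534 bases and the median enrichment 16.6. For single genes, 83 of 97 alternative widths and 72 of 79 alternative enrichments stayed within the SD between pools (for Isl1, at the same value). The pool lists are among these alternatives and also give the SD, so the counts are no test of stability. Without merging, Gng7 fell to 697 bases, Ebf1 to 1055 and Adcy5 to 6438. With the q limit of 10 these widths were 697, 2174 and 6438. Adcy5 also fell to 6438 with the q limit of 5, because the far peak of its domain had a −log10 q of 0.413. The replicated list held peaks down to a −log10 q of 0.182. Both libraries of a pool entered 1 list, so each library could not be left out in turn, and the single-pool lists stand in for leaving out a pool. The replicated list shares most peaks with the pooled reads and gives no independent check.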
